A study of Mus musculus with 2 samples.

Results

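The 9 genes described here encode cation channels of the TRPM and TRPC families: Trpm1, Trpm2, Trpm3, Trpm6, Trpm7, Trpm8, Trpc4, Trpc6 and Trpc7. They are 9 of the 21523 protein-coding genes onto which H3K9me2 peaks were placed, and a peak was assigned to a gene when it overlapped the RefSeq gene body extended by 2 kb on both sides. The members were chosen by the peak counts of the 2 lists, with their numbers known, so these counts are given as a description and without a test. The study compared cortex of TBC1D3-transgenic C57BL/6 mouse embryos with cortex of wildtype C57BL/6 embryos, both at embryonic day 15.5, by chromatin immunoprecipitation with an antibody to H3K9me2 followed by sequencing. Each genotype had 1 library and 1 peak list, with 6253 peaks from 20697113 ChIP tags in the transgenic library and 743 peaks from 26735120 ChIP tags in the wild-type library. There was no replicate, and all intervals are exact Poisson 95% intervals that cover counting error only. The promoter that drives the transgene, and whether cortices were pooled, are not given in the sources used here. TBC1D3 is a hominoid gene that mice lack, so the lists offer no check of the transgene.

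H3K9me2, dimethylation of lysine 9 of histone H3, is a mark of repressed chromatin that is placed largely by G9a (Ehmt2) with its partner GLP (Ehmt1), and the series title pairs G9a with TBC1D3. TRP channels are tetramers that let sodium and calcium into cells. Most TRPM channels respond to temperature, lipids, calcium or metabolites, and TRPC channels open downstream of phospholipase C. Trpm3 encodes a channel opened by heat and by the neurosteroid pregnenolone sulfate, known from sensory neurons and the choroid plexus. Its gene hosts the microRNA gene Mir204 in an intron, and Trpm1 hosts the related Mir211.

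Positions along Trpm3 are given from its RefSeq starts, so the sequences around these starts are shown first, together with that of Gm33649, a noncoding RNA gene that lies inside Trpm3 on the same strand. Each sequence is RefSeq, GRCm38.p6 (the assembly that mm10 represents), plus strand, 250 bases before the start and 50 from it on, and capitals mark each CG.
Trpm3, the first start, chr19:22138796-22139095: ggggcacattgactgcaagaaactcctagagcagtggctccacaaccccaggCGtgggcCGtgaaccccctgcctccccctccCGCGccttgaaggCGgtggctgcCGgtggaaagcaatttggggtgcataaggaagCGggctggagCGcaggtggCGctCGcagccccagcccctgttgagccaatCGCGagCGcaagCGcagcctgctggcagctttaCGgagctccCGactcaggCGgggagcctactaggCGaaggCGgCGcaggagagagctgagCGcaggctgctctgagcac
Trpm3, the second start, chr19:22447958-22448257: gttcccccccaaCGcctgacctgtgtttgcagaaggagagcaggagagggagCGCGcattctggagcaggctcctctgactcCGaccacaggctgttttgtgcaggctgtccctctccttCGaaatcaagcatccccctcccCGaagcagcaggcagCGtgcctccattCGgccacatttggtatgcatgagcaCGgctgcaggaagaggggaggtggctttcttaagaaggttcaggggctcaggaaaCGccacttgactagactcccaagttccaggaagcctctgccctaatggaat
Gm33649, chr19:22475208-22475507: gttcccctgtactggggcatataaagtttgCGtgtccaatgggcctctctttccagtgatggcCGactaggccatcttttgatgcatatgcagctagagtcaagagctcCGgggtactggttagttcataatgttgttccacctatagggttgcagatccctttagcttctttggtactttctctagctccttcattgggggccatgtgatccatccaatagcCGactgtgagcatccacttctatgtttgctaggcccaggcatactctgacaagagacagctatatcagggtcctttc
The first start of Trpm3 had 21 CG in a window of 66.7% G and C, and the second had 10 CG in a window of 58.0%. The start of Gm33649 had 4 CG and 48.7%. Over 32851 such windows the medians were 7 CG and 52.7%. At least as many CG as at the first Trpm3 start were found in 24.8% of windows, and at least as many as at the second in 43.5%. None of the 3 windows overlapped a peak of either library.

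The microRNAs hosted by Trpm3 and Trpm1 are shown because their genes serve as landmarks for the peaks. Capitals mark the seed, bases 2 to 8.
mmu-miR-204-5p: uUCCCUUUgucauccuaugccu
mmu-miR-211-5p: uUCCCUUUgucauccuuugccu
Both carried the same seed, and the pair differed by A17U alone (miR-204-5p first, counted from the 5′ end). Mir204 lies 612 kb after the first and 302 kb after the second start of Trpm3, and Mir211 lies 52.0 kb after the first start of Trpm1. Neither microRNA gene overlapped a peak.

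Peaks were found in 3 of the 9 genes in the transgenic library and in 0 of 9 in the wild-type library. Trpm3 held 7 transgenic and 0 wild-type peaks, Trpm8 held 2 and 0, and Trpm1 held 1 and 0. Over all coding genes, 5.69% held a transgenic peak and 0.911% a wild-type peak, and as peak numbers entered the choice of members nothing is read from this contrast. The median per gene was 0 peaks in each library, over the 9 genes and over all coding genes. All 10 peaks lay inside gene bodies. With the flank widened to 10 kb the 9 genes still held 10 transgenic and 0 wild-type peaks, and the nearest peak to a gene without one was 24.8 kb from Trpc4.

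Both lists were close to the floor of detection. The weakest calls in either library had 5 fragments over the summit, and 0 peaks of either list had a q-value of 0.05 or less. The lists were not equally weak by q. The lowest q was 0.0673 in the transgenic and 0.136 in the wild-type list, and the median −log10 q was 0.774 and 0. The 9 genes with their flanks span 1824 kb, where the mean densities of their chromosomes give 4.61 transgenic and 0.545 wild-type peaks. The 10 transgenic peaks (interval 4.80 to 18.4) were 2.17 times that number, a ratio of the counts that chose the genes and no support for a difference. The 0 wild-type peaks allow up to 3.69, so a lack of wild-type peaks was not detectable at this list length. Fragments were extended by 111 bp in the transgenic call and by 57 bp in the wild-type call, per the file headers, and the part of this setting in the difference between lists was not tested.

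**Figure D1:**
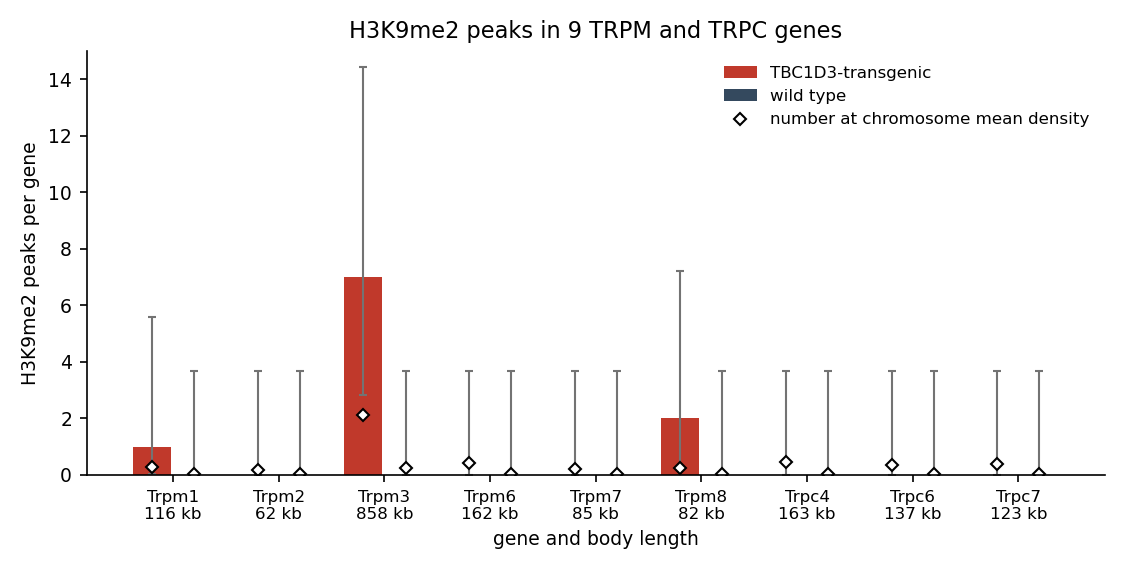
H3K9me2 peaks per gene (y axis) in the 9 genes (x axis, with body length), transgenic in red and wild type in dark blue at the right of each pair. Bars are counts, error bars exact Poisson 95% intervals, and diamonds the number that the mean density of the chromosome gives. Trpm3 holds 7, Trpm8 2 and Trpm1 1 transgenic peak, and all wild-type counts are 0.

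Trpm3 (Gene ID 226025) is the longest of the 9 genes, with a body of 858 kb at chr19:22137797-22995410. It held 7 transgenic peaks (2.81 to 14.4) and 0 wild-type peaks (0 to 3.69), where the mean densities of chromosome 19 give 2.11 and 0.251. The transgenic number was 3.31 times that of the mean density, and as this number chose the gene the ratio is a description. Trpm3 thus held 4.90% of the 143 transgenic peaks of chromosome 19 in 1.48% of its length.

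The 7 peaks were unevenly placed. The first lay 260 kb after the first start and 48.9 kb before the second, at chr19:22399239-22399410, with 6 fragments over a local background of 1.03. The next 4 lay between 57.1 and 84.1 kb after the second start. They had 8, 5, 8 and 8 fragments, over backgrounds of 1.21, 0.876, 0.964 and 1.97. The sixth lay 167 kb after the second start with 7 fragments over 1.06. The seventh lay 418 kb after the second start, beyond Mir204, with 5 fragments over 0.898. Peaks 2 to 6 thus lay within 110 kb, which is 12.8% of the body, and the middle of 5 equal parts of the body held 5 of the 7 peaks.

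Gaps between neighbouring peaks ranged from 3.01 kb, between peaks 4 and 5, to 252 kb, between peaks 6 and 7. Mir204 lies in the widest gap, 136 kb from peak 6 and 116 kb from peak 7. Between the second start and Mir204 the density was 16.5 peaks per Mb (5.37 to 38.6). Before the second start it was 3.23 per Mb (0.0819 to 18.0), and from Mir204 to the gene end 4.08 per Mb (0.103 to 22.8). The stretches were set with these positions known, and their densities were not compared by a test. The first of the 5 parts, which includes the first start, held 0 peaks, and so did the fourth. The second and the fifth held 1 each. In a part of this length, 0 peaks allow up to 21.5 per Mb.

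**Figure D2:**
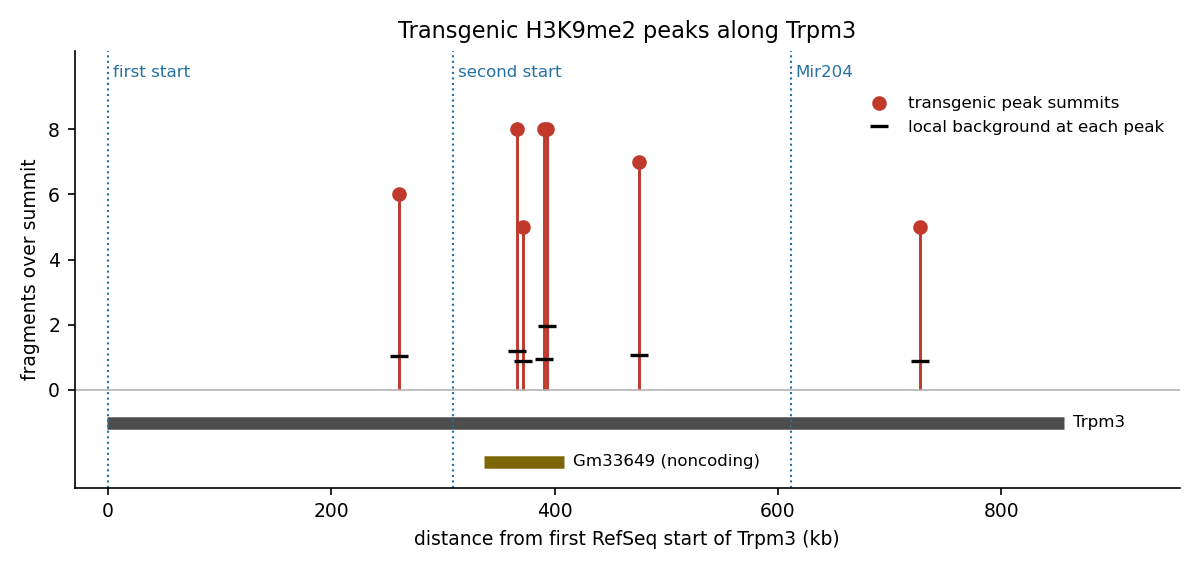
Transgenic H3K9me2 peaks along Trpm3, by distance of the summit from the first RefSeq start (x axis, kb) and fragments over the summit (y axis). Red points are the 7 peaks, black dashes the local background at each, dotted blue lines the starts and Mir204, and bars below the axis the bodies of Trpm3 and Gm33649. Peaks 2 to 5 fall within Gm33649, and no wild-type peak lies in the gene.

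Peaks 2 to 5 all fell inside Gm33649, which was named after its peaks were seen. This lncRNA gene of 71.6 kb at chr19:22475458-22547097 starts 27.3 kb after the second start of Trpm3 and covers 8.35% of its body. Its 4 transgenic peaks (1.09 to 10.2) lay 29.9 to 56.8 kb from its own start, and it held 0 wild-type peaks. The mean density of the chromosome gives 0.186 transgenic and 0.0221 wild-type peaks there. Among 846 lncRNA genes of 50 to 200 kb, 26.6% held a transgenic and 4.49% a wild-type peak, and 4 genes (0.473%) held at least 4 transgenic peaks. Gm33649 is among these 4 and was named for its peaks, so the share and the mean density are a description and no support for a difference. Strand cannot be read from a histone peak, so peaks of Gm33649 and of the Trpm3 body around it cannot be told apart. C330002G04Rik, a lncRNA gene across the end of Trpm3, held 1 transgenic peak, which lay outside Trpm3 and its flank.

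The strongest peak of the 9 genes was the fourth in Trpm3, at chr19:22529136-22529246. It had 8 fragments (3.45 to 15.8), a deposited fold enrichment of 4.58, a −log10 p of 6.08 and a q of 0.0673. That q was the lowest of the transgenic list and was shared by 502 peaks, and 7.87% of the list had a lower p. The second peak of Trpm3, at chr19:22505253-22505363, had a fold of 4.08 and a q of 0.0927. The fifth had as many fragments, yet a fold of 3.03, since its local background was the highest among the 10 peaks. The weakest by p was the seventh, at chr19:22866374-22866498, with a fold of 3.16 and a q of 0.297. Over the 10 peaks the median was 6.5 fragments and a fold of 3.45, against 6 fragments and a fold of 3.62 over the whole transgenic list. At least 8 fragments were found in 3 of the 10, and in 21.9% of the list. Width was the minimum the call allows, 111 bp, in 6 of the 10 peaks and in 46.6% of the list.

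Beside Trpm3, windows of equal length (862 kb) were sparser. These windows took no part in the choice of the gene, but the count of Trpm3 did. The contrast is thus a description and no support for a difference. The windows before and after it held 3 transgenic peaks each (0.619 to 8.77), and the next ones out 2 each (0.242 to 7.22). Their intervals overlap that of Trpm3, and the difference was not tested. Against the adjacent windows the number in Trpm3 was 2.33 times, not 3.31 times. Wild-type peaks numbered 0 and 0 in the windows before the gene and 1 and 1 in those after it. The nearest wild-type peak lay 460 kb beyond the end of Trpm3, with 5 fragments. Of the nearest coding genes, Cemip2, a cell surface hyaluronidase, and Abhd17b, a depalmitoylase, lie before Trpm3, while Klf9, a Krüppel-like transcription factor, and Smc5, a subunit of a chromosome maintenance complex, lie after it. All 4 held 0 transgenic and 0 wild-type peaks.

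**Figure D3:**
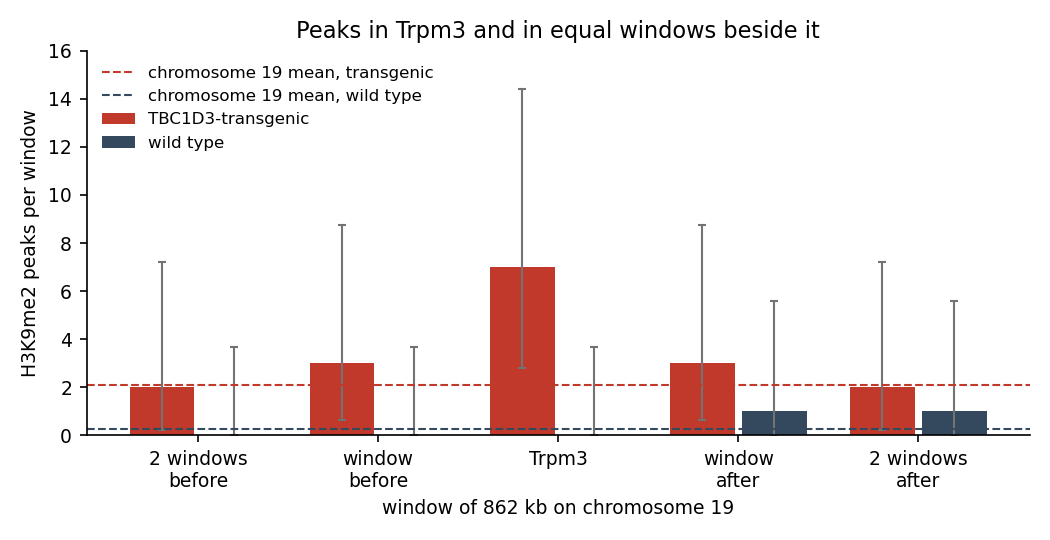
H3K9me2 peaks (y axis) in Trpm3 with its flanks and in 4 windows of the same length on chromosome 19 (x axis), transgenic in red and wild type in dark blue. Error bars are exact Poisson 95% intervals, and dashed lines the number the chromosome mean gives, 2.11 and 0.251. The transgenic counts are 2, 3, 7, 3 and 2, and the wild-type counts 0, 0, 0, 1 and 1.

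Long genes hold more peaks, and Trpm3 was read against them. Of 227 coding genes over 500 kb, 84.6% held a transgenic and 24.2% a wild-type peak, and the median was 2 transgenic peaks. At least 7 transgenic peaks were found in 16 of them (7.05%), which puts Trpm3 in the ninth place by count together with 7 other genes. By density, 8.12 peaks per Mb against a median of 2.26, it was in place 11, and Gabrg3, a GABA-A receptor subunit, was the densest with 14.8 per Mb. As the count of Trpm3 entered its choice, both places are a description and no support for a difference. A count of 0 wild-type peaks was found in 172 of the 227, so it does not set Trpm3 apart. Genes most like Trpm3 were sought among coding genes of a length within 1.5 times of its own, by 0 wild-type peaks and a transgenic count within 1 of 7. Of 148 genes in that range of length, 3 were found. They were Ntm, a neuronal adhesion protein, Anks1b, a postsynaptic protein, and Rarb, a retinoic acid receptor, with 6 transgenic peaks each, at 6.17, 5.43 and 9.15 per Mb.

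**Figure D4:**
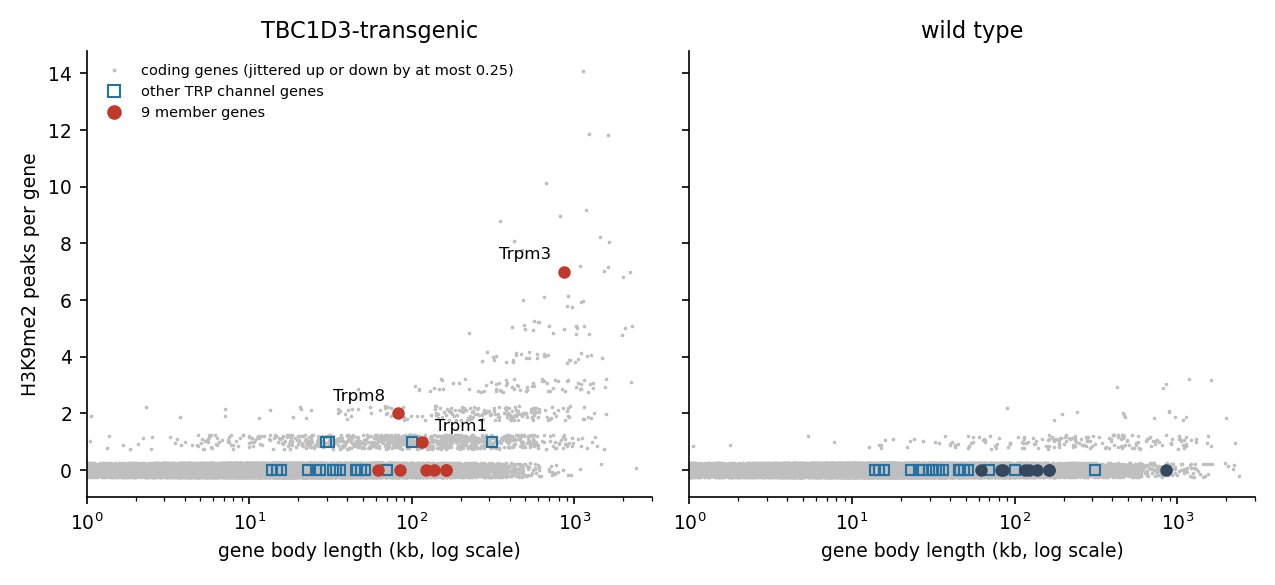
H3K9me2 peaks per gene (y axis) by gene body length (x axis, log scale), transgenic at the left and wild type at the right. Grey dots are coding genes, shifted up or down by at most 0.25 to show overlapping points, filled circles the 9 genes (red transgenic, dark blue wild type) and open squares the other TRP channel genes. Trpm3 lies among long genes with many transgenic peaks, and all TRP genes lie at 0 in the wild type.

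The other 8 genes are 62.2 to 163 kb long, a class in which 10.7% of coding genes held a transgenic and 1.45% a wild-type peak. Together they held 3 transgenic peaks (0.619 to 8.77) in Trpm8 and Trpm1, where the mean densities give 2.50, and 0 wild-type peaks, where they give 0.293. The 2 peaks of Trpm8 were 8.64 times its mean, the 1 peak of Trpm1 was 3.72 times its mean, and the other 6 genes held 0. The mean densities give from 0.168 to 0.448 transgenic peaks per gene here, so any gene with a peak exceeds its mean. As these counts chose the members, the ratios are a description and no support for a difference. Trpm8 encodes the receptor for cold and menthol in sensory neurons. Its body of 82.1 kb, at chr1:88306735-88388853, held 2 transgenic peaks (0.242 to 7.22) and 0 wild-type peaks, where the mean densities give 0.232 and 0.0193. The peaks lay 15.7 and 56.2 kb after its start, with 7 and 6 fragments, folds of 4.01 and 3.32 and q-values of 0.132 and 0.238. The nearest wild-type peak was 5346 kb away. At least 2 transgenic peaks were held by 1.53% of all coding genes, which are shorter (median 17.4 kb). That share was not counted for the length class of Trpm8.

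Trpm1 encodes the channel of retinal ON bipolar cells and is also known from melanocytes. It held 1 transgenic peak (0.0253 to 5.57) and 0 wild-type peaks, where the mean densities give 0.269 and 0.0430. The peak lay at chr7:64173910-64174089, 20.2 kb after the first start and 11.4 kb before the second start of Trpm1, which are 31.6 kb apart. It had 6 fragments, a fold of 3.45 and a q of 0.216. Mir211 lies 31.7 kb beyond it. This peak fell between the annotated starts, as did 1 of 7 peaks in Trpm3, where the starts are 309 kb apart. With 1 peak in each gene, no common placement is read from this.

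Trpm2, a channel opened by ADP-ribose under oxidative stress, and the channel kinases Trpm6 and Trpm7, which carry magnesium, held 0 transgenic and 0 wild-type peaks. Their mean densities give from 0.168 transgenic peaks in Trpm2 to 0.408 in Trpm6. The nearest transgenic peak lay 77.8 kb from Trpm2, 159 kb from Trpm6 and 300.3 kb from Trpm7. The nearest wild-type peak to Trpm6 lay 142 kb away, inside Rorb, the gene of an orphan nuclear receptor.

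The TRPC members held 0 transgenic and 0 wild-type peaks. Trpc6 and Trpc7 are opened directly by diacylglycerol, and Trpc4 acts downstream of Gq-coupled receptors. The mean densities give 1.21 transgenic and 0.139 wild-type peaks over the 3 genes, and 0 peaks allow up to 3.69 in each library, so too few peaks could not have been seen. Trpc4 was the closest to a peak, with a transgenic peak 24.8 kb beyond its end and a wild-type peak 26.3 kb before it, on opposite sides of the gene. The nearest transgenic peak lay 97.7 kb from Trpc7 and 276 kb from Trpc6.

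None of the 11 RefSeq starts of the 9 genes had a peak of either library in its window of 300 bases. Such peaks were rare, with a transgenic peak in 0.0582% and a wild-type peak in 0.0061% of 32619 windows on chromosomes 1 to 19 and X, so 0 of 11 does not set these genes apart. The nearest transgenic peak was 11.4 to 412 kb away, with the shortest distance at the second start of Trpm1. The CG number was 1 to 21 at the 5 starts of genes with a transgenic peak, and 3 to 35 at the 6 starts of genes without one, so the ranges overlapped. The start of Trpm8 is shown as the poorest in CG, with 2 peaks in its gene.
Trpm8, chr1:88306485-88306784, plus strand: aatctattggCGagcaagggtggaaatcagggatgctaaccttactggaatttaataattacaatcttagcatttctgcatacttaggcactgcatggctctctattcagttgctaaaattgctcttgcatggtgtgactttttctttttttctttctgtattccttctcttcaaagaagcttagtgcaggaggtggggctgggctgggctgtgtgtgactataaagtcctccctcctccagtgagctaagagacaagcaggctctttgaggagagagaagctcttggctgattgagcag

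In the 9 genes, 0 peaks were shared between the libraries. The 10 transgenic peaks lay 589 to 5402 kb from the nearest wild-type peak, with a median of 947 kb, and the median over all 6253 transgenic peaks was 1051 kb. None lay within 1 kb or within 10 kb of a wild-type peak. These zeros follow from the 0 wild-type peaks of the 9 genes, which were known when the genes were chosen. Over the whole transgenic list 0.0640% of peaks overlapped a wild-type peak, 0.352% lay within 1 kb of one and 1.30% within 10 kb. The value of 0 of 10 is near these shares, and nothing is read from it.

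The 9 genes are not the whole of their families, and 2 genes left out held a peak. Trpm4, a channel for sodium and potassium that calcium opens, held 1 transgenic peak of 5 fragments (fold 3.02, q 0.363), and Trpc5, a neuronal channel, held 1 of 6 fragments (fold 3.17, q 0.297). Each held 0 wild-type peaks. Trpm4 is under 50 kb long, a class in which 1.74% of coding genes held a transgenic and 0.139% a wild-type peak. Trpc5 is in the class of 200 to 500 kb, where the shares over all chromosomes were 41.9% and 7.99%. It lies on chromosome X, which held 0.960 transgenic peaks per Mb, against 2.53 on the autosomes, and 1 wild-type peak in all. The shares of the class are thus an unlike background for Trpc5. Over all 15 TRPM and TRPC genes, 5 held a transgenic peak and 0 a wild-type peak, beside 5.69% and 0.911% of all coding genes, which are shorter (median 17.4 kb against 84.7 kb). The 8 TRPM genes held 11 transgenic peaks, where the mean densities give 3.54, and the 7 TRPC genes held 1, where they give 1.88. The ratios to the mean density were 3.11 (1.55 to 5.56) in the TRPM and 0.533 (0.0135 to 2.97) in the TRPC genes. The difference was not tested, and 7 of the 11 TRPM peaks were those of Trpm3. Of the same 11, 10 lay in the TRPM members, whose counts entered the choice of the 9 genes. The ratios are thus a description and no support for a difference from the mean density.

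Among 19 other TRP genes, which include these 2, 4 held a transgenic and 0 held a wild-type peak, beside 5.69% and 0.911% of all coding genes. The additional 2 were Trpv5, an epithelial calcium channel, with a peak of 7 fragments in its flank, and Pkd2l1, a channel of neurons that contact the cerebrospinal fluid, with a peak of 7 fragments inside the gene (fold 4.03, q 0.132). Their 4 peaks (1.09 to 10.2) compare with 2.21 at the mean densities. Of 24 genes that act with TRPC channels through phospholipase C and store-operated calcium entry, 5 held a transgenic and 1 a wild-type peak, beside the same 5.69% and 0.911%. The median length of the 24 genes was 83.3 kb. The 9 transgenic peaks compare with 8.70 at the mean densities, and 1 wild-type peak with 1.03. Plcb1, a phospholipase C that Gq proteins activate, held 4 transgenic peaks of 5 to 7 fragments (1.09 to 10.2), where the mean gives 1.66. The inositol trisphosphate receptor Itpr1 held 2, and Itpr2, Plcb4 and Gna14, a Gq-class subunit, held 1 each. These 5 held 0 wild-type peaks. Pip5k1b, a kinase that makes the lipid cleaved by phospholipase C, held 0 transgenic peaks and 1 wild-type peak of 6 fragments (fold 3.74, q of 1).

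Stricter thresholds shortened the set. At a −log10 p of at least 5, 2 of the 10 peaks were left, both in Trpm3, against 32.6% of the list, and at a fold of at least 5, 0 were left, against 2.65% of the list.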

How the data were processed

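H3K9me2 peak lists were analysed for 1 TBC1D3-transgenic and 1 wild-type library, grouped by the genotype label. Peaks had been called by the authors with MACS version 2.1.0.20150420, each library against its own input, at a p cutoff of 0.001 and without a shift model, per the file headers. The submitters' processing notes also name BWA and mm10. The pileup signal, as deposited, counts extended fragments at the summit, scaled to the smaller of ChIP and input. Division by that scale gave whole fragments within 0.02 for 100% of peaks in both lists. The deposited fold is the ratio of pileup plus 1 to local background plus 1, from which the background was computed. The −log10 p and q in the deposited lists come from the peak caller, and q was used as listed although the headers say it was not calculated.

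Genes came from a RefSeq table of GRCm38.p6. Genes with a start under 3 Mb were left out. The number at mean density is a chromosome's peaks divided by its length from 3 Mb to the last gene or peak, times the extended gene length. Named were the members, listed TRP and phospholipase C genes with a peak, the 2 coding genes on each side of Trpm3 and up to 5 genes most like it. The members and lists were chosen with earlier results of these data known. Alternatives were a stricter fold or p, a shortened transgenic list, other flanks, merging within 1 kb and other densities. Python 3.11.15, pandas 2.3.3 and scipy 1.17.1 were used, and the counting was tested on simulated peaks. No genome sequence was used, so peak sequences were not analysed here.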

Additional observations from a re-analysis of the deposited data

How the results depend on the processing

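No paired analysis was possible because each genotype has 1 library, and no library could be left out. The weakest peaks of both lists rest on 5 fragments, so single peaks have wide counting intervals. The filters change the counts because they leave fewer peaks. A fold of at least 5 left 0 transgenic peaks in the 9 genes, so 0 members and 0 of the 15 TRPM and TRPC genes held one, Trpm3 held 0, and both ratios to the mean density were 0. That filter left 166 transgenic and 62 wild-type peaks in all. A −log10 p of at least 5 left 2 transgenic peaks in the 9 genes, both in Trpm3, so 1 member held one, as did 1 of the 15 genes. It left 1 of the other TRP genes with a transgenic peak, and 0 phospholipase C genes with a transgenic and 0 with a wild-type peak. With the transgenic list shortened to the 743 peaks of lowest p, 1 peak was left in the 9 genes, in 1 member, Trpm3, and 1 of the 15 genes held a peak. A flank of 10 kb added 1 wild-type hit among the other TRP genes, at Pkd2l2. The remaining 49 values changed by less than 1.5 times or stayed within the interval of the main value. Many of them are wild-type or shared counts of 0, which a filter, a shortened list or merging cannot raise. The intervals of the ratios are wide, and the ratio of 6.77 for Trpm3 with the shortened list rests on 1 peak. These values are thus a weak check. Apart from the fold filter, the ratio to the mean density ranged from 1.49 to 3.07 for the 9 genes and from 2.33 to 6.77 for Trpm3. The density of the windows beside Trpm3 and the use of its second start, with 6 peaks beyond it, were chosen after seeing the data.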

Other observations

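The 5 transgenic peaks between the second start of Trpm3 and Mir204 form a run of 5 neighbouring peaks within 110 kb. The transgenic list held 21 such runs of 5, which fall into 14 places when overlapping runs are joined. Of these places 8 overlapped a coding gene, among them Ano2 (a chloride channel) with 7 peaks, Tprg with 9, and Cacna2d3 (a calcium channel subunit) and Opcml (a neuronal adhesion protein) with 5 each. Chromosome 19 held 2 of the places, in Trpm3 and at chr19:54693535-54730996, where no coding gene was annotated. The run in Trpm3 was chosen after its peaks were seen and set the span of the search.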
